A study of Mus musculus with 2 samples.

Results

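Genes that handle reactive oxygen and metal ions were followed in mouse muscle stem cells (MuSCs), namely Gpx1, Gpx4, Hmox1, Nqo1, Txnrd1, Prdx1, Srxn1, Sod1, Mt1 and Mt2. They were taken by symbol, and all 10 were listed among the 27321 genes of the short-read tables. MuSCs are the Pax7-expressing cells beneath the basal lamina of the muscle fibre that rest until injury and then divide to rebuild muscle. The cells came from Pax7creERT2R26-eYFPfl/fl mice on a C57BL6 background, in which Cre driven by Pax7 marks MuSCs with YFP once tamoxifen is given. At 3 months of age the mice had tamoxifen on 5 days, and hindlimb muscle was taken 2 weeks after the last dose. Quiescent cells came from uninjured muscle and activated cells from muscle collected 72 h after injection of 1.2% barium chloride, which kills muscle fibres. YFP-positive cells of both kinds were run together in 1 capture of droplets, with no label of the muscle a cell came from and no stated number of mice. After reverse transcription the droplets were divided into aliquots of 10% and 90%. Short reads were counted per gene in both aliquots and long reads per isoform in the 10% aliquot.

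Because no label divided the cells, barcodes were divided by depth, the number of unique molecular identifiers (UMIs), each of which stands for 1 captured mRNA molecule. Shallow barcodes had 3000 to 15000 UMIs and no UMI of the cell cycle genes Rrm2, Top2a and Cdk1. Deep barcodes had at least 20000 UMIs. The 10% table held 157 shallow barcodes with a median of 6729 UMIs and 79 deep barcodes with a median of 65499. The 90% table held 1243 shallow barcodes with a median of 4680 UMIs and 606 deep barcodes with a median of 47106. Levels are given as CPM, the UMIs of a gene per 1000000 UMIs summed over the barcodes of a class. Intervals are exact 95% Poisson or binomial intervals and cover counting error only. With 1 capture there was no replicate of either class and hence no test between them. A gene was called higher in a class where its CPM was at least 2-fold higher in both tables, with at least 10 UMIs over both classes in each table.

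Resting MuSCs carry little RNA, and on activation they enlarge, resume transcription and enter the cell cycle. Peroxide is removed by glutathione peroxidases, which use glutathione, and by peroxiredoxins, which are kept reduced by thioredoxin, thioredoxin reductase and sulfiredoxin. Metallothioneins are small cysteine-rich proteins that bind zinc and copper, and their genes are induced by metals through the factor MTF1 and by glucocorticoids. Many of the other genes respond to oxidants and electrophiles through NRF2, the product of Nfe2l2, which binds antioxidant response elements with small MAF proteins and competes there with BACH1.

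The tables were not independent. All 330 barcodes of at least 1000 UMIs in the 10% table were also present in the 90% table. The 220 barcodes that fell in the same class in both tables had a median of 0.813 times as many UMIs in the 90% table. Their profiles correlated with a median r of 0.935 with the same barcode and 0.724 with another barcode of the class. A further 126 shared barcodes were in neither class of the 10% table and deep in the 90% table. Results are therefore also given for the 90% table without the 634 barcodes found in both, which left 1000 shallow and 399 deep barcodes. The shallow class had a higher summed CPM of 8 genes of quiescent MuSCs (530 CPM against 49.8 CPM in deep barcodes of the 10% table, 629 and 47.2 CPM in the 90% table). The summed CPM of 9 muscle lineage genes was higher there too (2560 and 762 CPM, then 3029 and 915 CPM). Each gene of both lists had UMIs in both classes. Of the lineage genes, Pax7, Myf5, Myod1, Vcam1, Sdc4 and Chodl were higher in shallow barcodes. Des, Cdh15 and Itga7 were lower in both tables, with Des at 253 and 323 CPM, then 305 and 408 CPM. The 9 genes listed for activated MuSCs and myoblasts, which include the 3 cycle genes that the rule sets to 0 in shallow barcodes, were at 1117 and 671 CPM, then 1112 and 855 CPM, and Myod1 among them was at 1106 and 185 CPM, then 1069 and 213 CPM. The others that the rule leaves free, Myog, Mki67, Ccnb1, Ccna2 and Mcm5, were all lower in shallow barcodes of both tables. Among them Myog was at 1.79 and 33.1 CPM, then 36.7 and 74.6 CPM. Mki67 was at 0.897 and 30.8 CPM, then 2.01 and 24.6 CPM. The shallow class therefore held markers of quiescent MuSCs together with Myod1, and is named here by its depth alone. It also had more UMIs of 14 immediate-early and stress genes known to respond to tissue dissociation (3836 and 518 CPM, then 4863 and 495 CPM). UMIs of 10 immune genes, 9 of them listed in the 10% table, came to 347 and 93.9 CPM in the 10% table and 280 and 5.62 CPM in the 90% table. In shallow barcodes 6 of 9 immune genes had UMIs in the 10% table, with Ptprc, Coro1a and C1qa at 0, and 9 of 10 did in the 90% table, with Cd3e at 0. There Lyz2 was at 112 and 0.971 CPM, Tyrobp at 55.9 and 0.469 CPM and C1qa at 11.9 and 0.0669 CPM, whereas in the 10% table Lyz2 was at 8.97 and 27.3 CPM, Tyrobp at 58.3 and 25.5 CPM and C1qa at 0 and 9.61 CPM. Fibro-adipogenic genes came to 151 and 36.9 CPM, then 247 and 28.8 CPM, and glial genes to 64.6 and 1.96 CPM, then 4.65 and 1.14 CPM. The members that passed the 2-fold rule below also passed with barcodes of at least 3 UMIs of other cell types left out. That limit took out 3 of 157 shallow and 13 of 79 deep barcodes of the 10% table. In the 90% table it took out 20 of 1243 and 59 of 606, so nearly all shallow barcodes stayed. The parts of other cell types and of the dissociation genes in the differences between the classes were not tested. With 5% of the UMIs of each barcode taken as free RNA of the droplets and subtracted, the members that passed the 2-fold rule below were the same.

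Of the 9 members that could be compared, 5 were higher in shallow barcodes, namely Mt1, Mt2, Srxn1, Hmox1 and Txnrd1, against 13.8% of the 12107 genes compared. Gpx1 alone was higher in deep barcodes, against 24.9% of all genes. Gpx4, Prdx1 and Sod1 passed in neither direction, and Nqo1 had too few UMIs. The median over the 9 members of the log2 ratio of deep over shallow CPM, averaged over the tables, was -1.44, against 0.34 for all genes compared. The members were chosen with earlier results of these data known, so these values describe them and do not test the group. The same 5 members and Gpx1 passed without the shared barcodes, where 13.4% and 24.2% of genes did. In the 90% table alone Prdx1 and Nqo1 also passed the 2-fold limit in deep barcodes, which made 3. In levels summed over a class, fewer cells with a gene and less of its RNA per cell cannot be told apart. A share of a larger total also falls where the number of molecules does not, so UMIs per barcode are given beside the CPM.

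**Figure D1:**
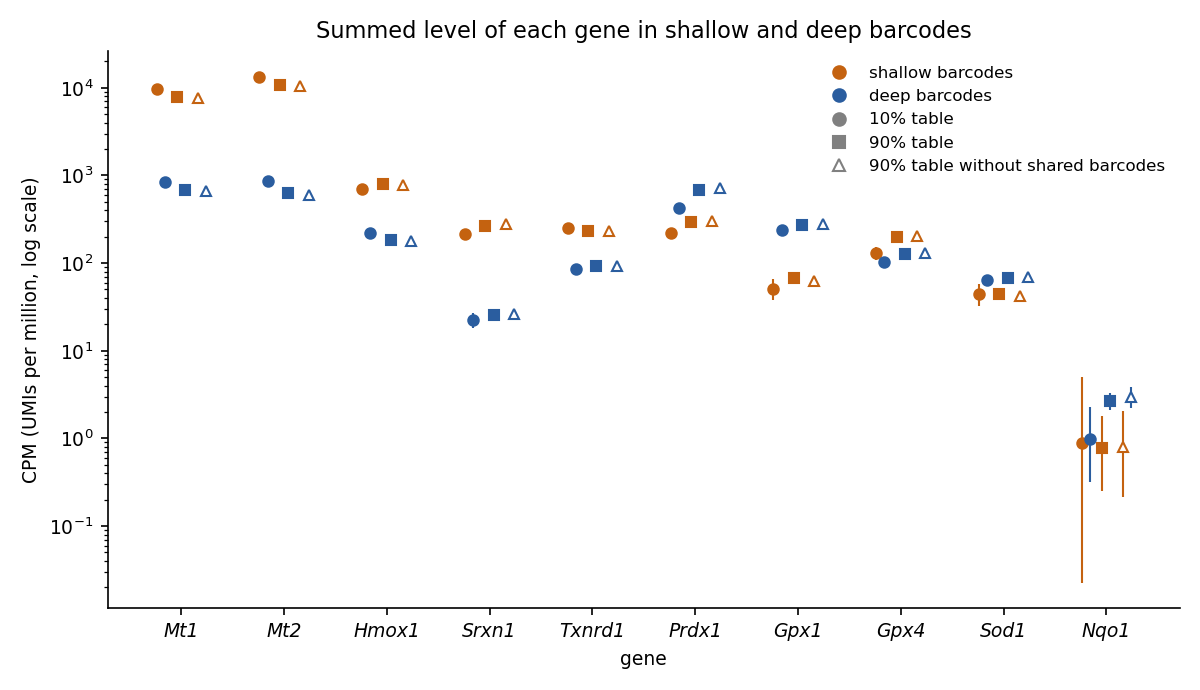
Level of each member in shallow and deep barcodes of the 10% table, the 90% table and the 90% table without shared barcodes, as CPM on a log axis with exact 95% Poisson intervals. Mt1, Mt2, Srxn1, Hmox1 and Txnrd1 stand higher in shallow barcodes in each table, and Gpx1 stands higher in deep barcodes.

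The metallothionein genes Mt1 and Mt2 differed the most of the 10 members. In the 10% table Mt1 (ENSMUSG00000031765, chr8:94179082-94180327, plus strand, mm10) was at 9626 CPM (9444 to 9810) in shallow barcodes and 847 CPM (822 to 873) in deep barcodes. In the 90% table it was at 7855 and 681 CPM, and without the shared barcodes at 7720 and 661 CPM. Mt1 was thus 11.4-fold (10.97 to 11.8) higher in shallow barcodes of the 10% table and 11.5-fold (11.3 to 11.7) higher in those of the 90% table. Mt2 (ENSMUSG00000031762, chr8:94172664-94173568, plus strand), its neighbour in the same cluster, was at 13387 CPM (13173 to 13604) in shallow and 853 CPM (828 to 879) in deep barcodes of the 10% table. It was at 10681 and 625 CPM in the 90% table and at 10378 and 598 CPM without the shared barcodes. The ratio of shallow to deep was 15.7-fold (15.2 to 16.2), 17.1-fold (16.8 to 17.4) and 17.4-fold in the same order. Only 1.77% and 2.01% of the genes compared had a lower log2 ratio than Mt2 in the 10% and 90% tables. Within a cluster of related genes the pair did not move in step, since the UMIs of Mt2 per UMI of Mt1 went from 1.39 in shallow to 1.01 in deep barcodes of the 10% table, from 1.36 to 0.918 in the 90% table and from 1.34 to 0.904 without the shared barcodes. An exon stretch of 432 bases of Mt2 overlaps the antisense gene Gm45774, which had 12 and 11 UMIs in the 10% table.

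Mt1 and Mt2 also had more molecules per shallow barcode, although those barcodes were the smaller ones. Mt1 averaged 68.3 UMIs per shallow and 54.7 per deep barcode in the 10% table, and 40.8 and 33.6 in the 90% table. Mt2 averaged 95.03 and 55.1 UMIs per barcode in the 10% table, and 55.4 and 30.8 in the 90% table. Srxn1 was nearly level on this scale, with 1.54 and 1.43 UMIs per barcode in the 10% table and 1.39 and 1.27 in the 90% table. Every other member had more UMIs per deep barcode, Hmox1 by the least (4.96 and 14.1, then 4.15 and 8.997) and Gpx1 by the largest factor (0.357 and 15.4, then 0.347 and 13.6). Thus the higher CPM of Hmox1 and Txnrd1 in shallow barcodes was a higher share of fewer molecules, with Txnrd1 at 1.77 and 5.54 UMIs per barcode and then at 1.22 and 4.53.

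Sequence just upstream of the transcription start is shown for Mt1, Mt2, Srxn1 and Prdx1, because the metallothionein genes had the largest differences and because Srxn1 and Prdx1, which differed in opposite directions, each hold 2 AP-1 sites. The windows are RefSeq promoters of GRCm38.p6, up to 250 bases before the annotated start with annotated exon bases left out, and 9 of the 10 members matched one, all but Hmox1. Capitals mark matches on either strand to the core of the metal response element bound by MTF1, TGCACNC or its form TGCGCNC, to the antioxidant response element core TGACNNNGC, and to the AP-1 site TGAGTCA, which can lie within the former.
Mt1, chr8:94178839-94179081, plus strand: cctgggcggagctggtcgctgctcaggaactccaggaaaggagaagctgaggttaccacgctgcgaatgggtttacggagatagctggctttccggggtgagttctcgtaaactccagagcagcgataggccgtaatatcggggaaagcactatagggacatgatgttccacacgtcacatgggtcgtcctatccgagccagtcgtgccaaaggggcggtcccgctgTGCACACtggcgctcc
Mt2, chr8:94172368-94172617, plus strand: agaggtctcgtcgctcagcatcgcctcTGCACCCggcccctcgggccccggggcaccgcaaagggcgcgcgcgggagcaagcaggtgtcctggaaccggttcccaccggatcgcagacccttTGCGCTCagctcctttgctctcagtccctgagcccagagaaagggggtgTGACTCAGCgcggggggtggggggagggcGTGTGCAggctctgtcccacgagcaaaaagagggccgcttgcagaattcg
Srxn1, chr2:152105274-152105515, plus strand: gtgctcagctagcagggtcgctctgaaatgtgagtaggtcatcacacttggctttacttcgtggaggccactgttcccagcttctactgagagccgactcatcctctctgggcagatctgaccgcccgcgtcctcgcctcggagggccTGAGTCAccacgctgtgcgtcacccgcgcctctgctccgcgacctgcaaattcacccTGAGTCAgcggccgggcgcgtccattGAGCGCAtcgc
Prdx1, chr4:116685349-116685543, plus strand: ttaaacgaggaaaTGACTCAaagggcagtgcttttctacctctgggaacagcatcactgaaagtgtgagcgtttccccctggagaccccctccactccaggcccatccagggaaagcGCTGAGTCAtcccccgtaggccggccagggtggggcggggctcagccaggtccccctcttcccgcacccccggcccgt
The windows stop before the RefSeq start, and bases past it were not searched. The Mt1 window held 1 TGCACNC. In long reads, isoforms that begin at 94179241, 152 bases past that start, made up 46.3% of Mt1 in shallow and 35.8% in deep barcodes. Those that begin at 94172784, 166 bases past the Mt2 start, made up 42.9% and 39.1% of Mt2. The Mt2 window held 2 TGCACNC, 1 TGCGCNC and 1 TGACNNNGC that overlaps 1 TGAGTCA. Among 32851 RefSeq windows of 250 bases, 21.4% held at least 1 metal response core of either form and 1.26% at least 3. The Srxn1 window held 2 TGAGTCA, 1 of them followed by GC, and 1 TGCGCNC. TGACNNNGC was the only antioxidant response form searched, so its absence there does not cover other forms of that element. Of all windows, 0.167% held at least 2 TGAGTCA. The Prdx1 window likewise held 2 TGAGTCA, 1 of which overlaps a TGACNNNGC, the latter present in 10.2% of windows. Srxn1 and Prdx1 were shown because of these sites, so the share of windows with at least 2 TGAGTCA is a description only. In long reads an Srxn1 isoform that begins at 152104844, before the printed window, made up 11.4% of Srxn1 in shallow and 9.67% in deep barcodes. Most Srxn1 UMIs, 79.1% and 80.3%, were of isoforms that begin at 152105730, 206 bases past the RefSeq start. One of 3 windows of Txnrd1 and the Sod1 window held 1 TGACNNNGC each, and no match was found in the windows of Gpx1, Gpx4 and Nqo1. These matches describe letters in the reference and not binding in these cells.

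Hmox1 (ENSMUSG00000005413, chr8:75093621-75100589, plus strand), the inducible heme oxygenase that breaks heme into biliverdin, iron and carbon monoxide, was higher in shallow barcodes. It was at 698 CPM (650 to 749) in shallow and 218 CPM (205 to 231) in deep barcodes of the 10% table, and at 800 and 182 CPM in the 90% table. The ratio was 3.20-fold (2.92 to 3.51) and 4.38-fold (4.22 to 4.55), and 4.37-fold without the shared barcodes. Hmox1 was uneven within the deep class. In the 9 deep barcodes of the 10% table with no UMI of the 3 cycle genes Hmox1 was at 602 CPM, against 196 CPM in the other 70. In the 35 such barcodes of the 90% table it was at 285 CPM, against 178 CPM in the other 571. With both classes free of cycle UMIs the ratio of shallow to deep was 1.16-fold in the 10% table and 2.80-fold in the 90% table, and the call was lost.

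On the thioredoxin side, Srxn1 and Txnrd1 were higher in shallow barcodes while Prdx1 had the higher CPM in deep ones. Srxn1 (ENSMUSG00000032802, chr2:152105516-152111376, plus strand) encodes sulfiredoxin, which repairs over-oxidised peroxiredoxins. It was at 216 CPM (190 to 245) in shallow and 22.2 CPM (18.3 to 26.6) in deep barcodes of the 10% table, at 268 and 25.7 CPM in the 90% table and at 282 and 26.2 CPM without the shared barcodes. The ratio was 9.76-fold (7.77 to 12.3), 10.4-fold (9.56 to 11.4) and 10.8-fold. Txnrd1 (ENSMUSG00000020250, chr10:82833951-82897712, plus strand), the cytosolic thioredoxin reductase and a selenoprotein, was at 249 CPM (221 to 281) in shallow and 85.9 CPM (78.0 to 94.3) in deep barcodes of the 10% table. In the 90% table it was at 234 and 91.9 CPM. Txnrd1 was 2.90-fold (2.49 to 3.38) and 2.55-fold (2.39 to 2.72) higher in shallow barcodes of the 2 tables. With both classes free of cycle UMIs the ratio of Txnrd1 was 1.71-fold in the 10% table and 3.06-fold in the 90% table, so that its call was lost as well.

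Prdx1 (ENSMUSG00000028691, chr4:116685544-116700822, plus strand), an abundant cytosolic peroxiredoxin and the substrate of sulfiredoxin, lay close to the limit. It was at 223 CPM (196 to 252) in shallow and 421 CPM (403 to 439) in deep barcodes of the 10% table, at 291 and 677 CPM in the 90% table and at 300 and 721 CPM (708 to 733) without the shared barcodes. The ratio of deep to shallow was 1.89-fold (1.66 to 2.166) in the 10% table and 2.33-fold (2.22 to 2.44) in the 90% table. It passed 2-fold in both tables when barcodes with at least 3 UMIs of other cell types were left out (2.60-fold and 2.73-fold), when every barcode was thinned to 3000 UMIs (2.26-fold and 2.54-fold) and when CPM was averaged over barcodes (2.07-fold and 2.59-fold). Such barcodes numbered 3 of 157 shallow and 13 of 79 deep in the 10% table, and 20 of 1243 and 59 of 606 in the 90% table. Reads of Prdx1 may be shared with the near-identical Gm21399 and Gm7204, and with their UMIs added the ratio was 1.82-fold and 2.35-fold.

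The glutathione peroxidase genes Gpx1 and Gpx4 had ratios on opposite sides of 1. Gpx1 (ENSMUSG00000063856, chr9:108338903-108340343, plus strand), the cytosolic enzyme that reduces hydrogen peroxide, was at 50.2 CPM (38.0 to 65.2) in shallow and 239 CPM (226 to 253) in deep barcodes of the 10% table. It was at 66.8 and 275 CPM in the 90% table and at 62.4 and 278 CPM without the shared barcodes. Gpx1 was 4.76-fold (3.64 to 6.34), 4.12-fold (3.74 to 4.55) and 4.45-fold higher in deep barcodes. Gpx4 (ENSMUSG00000075706, chr10:80047166-80056439, plus strand), which reduces lipid peroxides within membranes, was at 130 CPM (110 to 153) in shallow and 103 CPM (94.0 to 112) in deep barcodes of the 10% table, and at 196 and 126 CPM in the 90% table. The ratio of deep to shallow of Gpx4 was 0.788-fold (0.655 to 0.954) and 0.643-fold (0.603 to 0.686), within the 2-fold limit. The level of Gpx4 is uncertain, because the pseudogene Gpx4-ps2 is 99.7% identical to it over 762 bases and took more UMIs than Gpx4 itself, 332 and 1194 in the 10% table and 2740 and 8312 in the 90% table. With these added the level was 428 and 337 CPM in the 10% table and 621 and 404 CPM in the 90% table, and the ratio was 0.787-fold and 0.651-fold. Adding the copy thus moved the level of Gpx4 but hardly its ratio.

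Sod1 (ENSMUSG00000022982, chr16:90220754-90226329, plus strand), the cytosolic copper and zinc superoxide dismutase, was at 44.0 CPM (32.5 to 58.1) in shallow and 64.7 CPM (57.9 to 72.1) in deep barcodes of the 10% table, and at 44.3 and 68.0 CPM in the 90% table. The ratio of deep to shallow was 1.47-fold (1.09 to 2.03) and 1.53-fold (1.35 to 1.74), and with the UMIs of the 97.8% identical Gm8566 it was 1.39-fold and 1.47-fold. Nqo1 (ENSMUSG00000003849, chr8:107388225-107403206, minus strand), a quinone reductase often used as a readout of NRF2, had 1 and 5 UMIs in the shallow and deep barcodes of the 10% table. In the 90% table it had 5 UMIs in 1243 shallow and 79 UMIs in 606 deep barcodes, at 0.775 CPM (0.252 to 1.81) and 2.64 CPM (2.09 to 3.30). A difference in Nqo1 was not detectable at the depth of the 10% table.

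To compare shares of barcodes with a UMI, each barcode was thinned at random to 3000 UMIs. Mt1 was then found in 93.0% (87.8 to 96.5) of shallow and 79.7% (69.2 to 88.0) of deep barcodes of the 10% table, and in 93.7% and 76.1% of those of the 90% table. Without thinning the shares of Mt1 were 94.9% and 100%, then 95.7% and 99.8%. Srxn1 was found in 22.9% (16.6 to 30.3) and 3.80% (0.790 to 10.7) of thinned barcodes of the 10% table, and in 33.1% and 6.11% of those of the 90% table. Unthinned, Srxn1 was found in 38.9% and 54.4%, then 40.7% and 46.5%, so the order of the classes turned with depth for Srxn1 as for Mt1. Gpx1 was found in 8.92% (4.96 to 14.5) and 50.6% (39.1 to 62.1) of thinned barcodes of the 10% table, and in 10.1% and 53.0% of those of the 90% table. Hmox1 was found in 49.0% and 32.9%, then 51.4% and 30.7%. Unthinned, Hmox1 was found in 60.5% and 77.2%, then 58.1% and 72.1%, so its order turned with depth too. Every barcode was from the YFP sort, so no cell type that should lack the members gave a background share for free RNA.

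**Figure D2:**
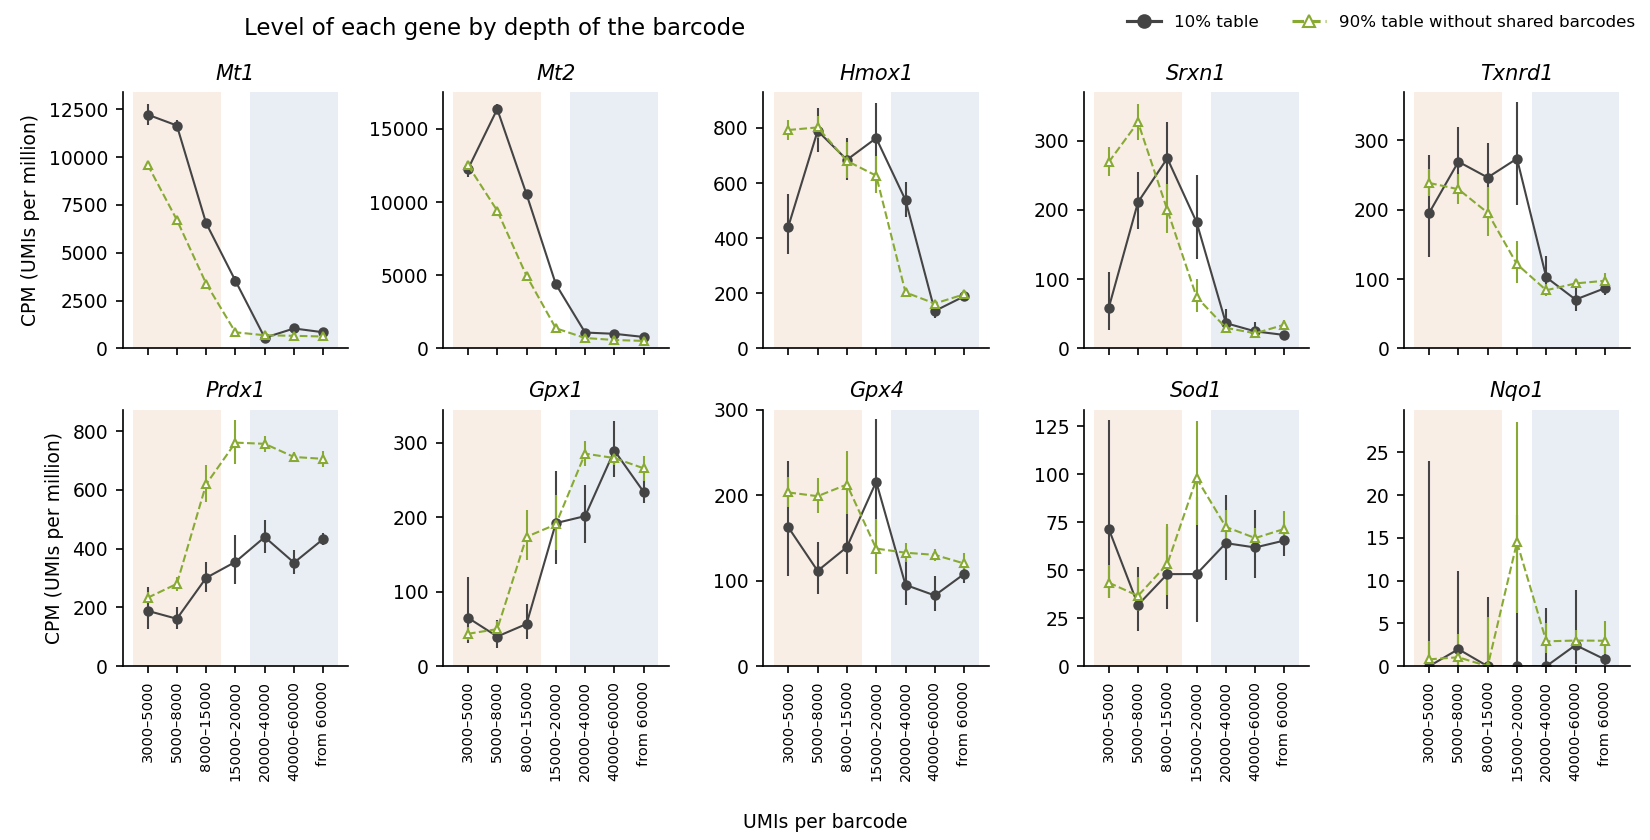
CPM of each member (linear axes from 0) in 7 bins of UMIs per barcode, in the 10% table and the 90% table without shared barcodes, with exact 95% Poisson intervals and with the shallow bins shaded orange and the deep bins blue. Mt1 goes from 9608 CPM at 3000 to 5000 UMIs to 627 CPM at 60000 UMIs or more in the 90% table without shared barcodes, and Gpx1 from 43.5 to 265 CPM.

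Within the shallow class the members still varied with depth. In the 90% table without shared barcodes Mt1 was at 9608 CPM in barcodes of 3000 to 5000 UMIs, 6717 CPM at 5000 to 8000, 3391 CPM at 8000 to 15000, 846 CPM at 15000 to 20000 and 692, 661 and 627 CPM in the 3 deep bins, 20000 to 40000, 40000 to 60000 and above. The level of Mt1 was thus down to 846 CPM before the deep class began and then lay within a narrow range. In the 10% table it was at 6544 CPM at 8000 to 15000 and 3536 CPM at 15000 to 20000 UMIs, and the 3 deep bins were at 562, 1047 and 846 CPM. Gpx1 went the other way, at 43.5, 49.7, 174, 190, 285, 279 and 265 CPM over the same 7 bins of the 90% table without shared barcodes. Srxn1 did not have its top in the smallest barcodes, being at 269, 327 and 200.1 CPM in the 3 shallow bins there and at 58.5, 211 and 275 CPM in those of the 10% table. Prdx1 was at 233, 280.1 and 619 CPM in the shallow bins and at 757, 712 and 706 CPM in the deep bins, so that the upper shallow bin was nearer to the deep class.

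The shallow class held barcodes with and without a UMI of Myod1, a transcription factor that marks MuSCs leaving quiescence. A barcode without one may still have held Myod1 mRNA, more so at lower depth, and depth was not matched between these groups. Srxn1 was at 300 CPM in the 83 shallow barcodes with a Myod1 UMI and 121 CPM in the 74 without one in the 10% table, and at 307 and 229 CPM in the 604 and 639 of the 90% table. Gpx1 was at 23.6 and 80.6 CPM, then 46.8 and 86.1 CPM. Mt1 was at 10168 and 9007 CPM, then 8536 and 7199.5 CPM, and so was high in either kind of shallow barcode. The shallow barcodes that did have cycle UMIs, 21 in the 10% table and 148 in the 90% table, lay lower, with Mt1 at 4723 and 4529 CPM and Mt2 at 5144 and 5922 CPM.

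**Figure D3:**
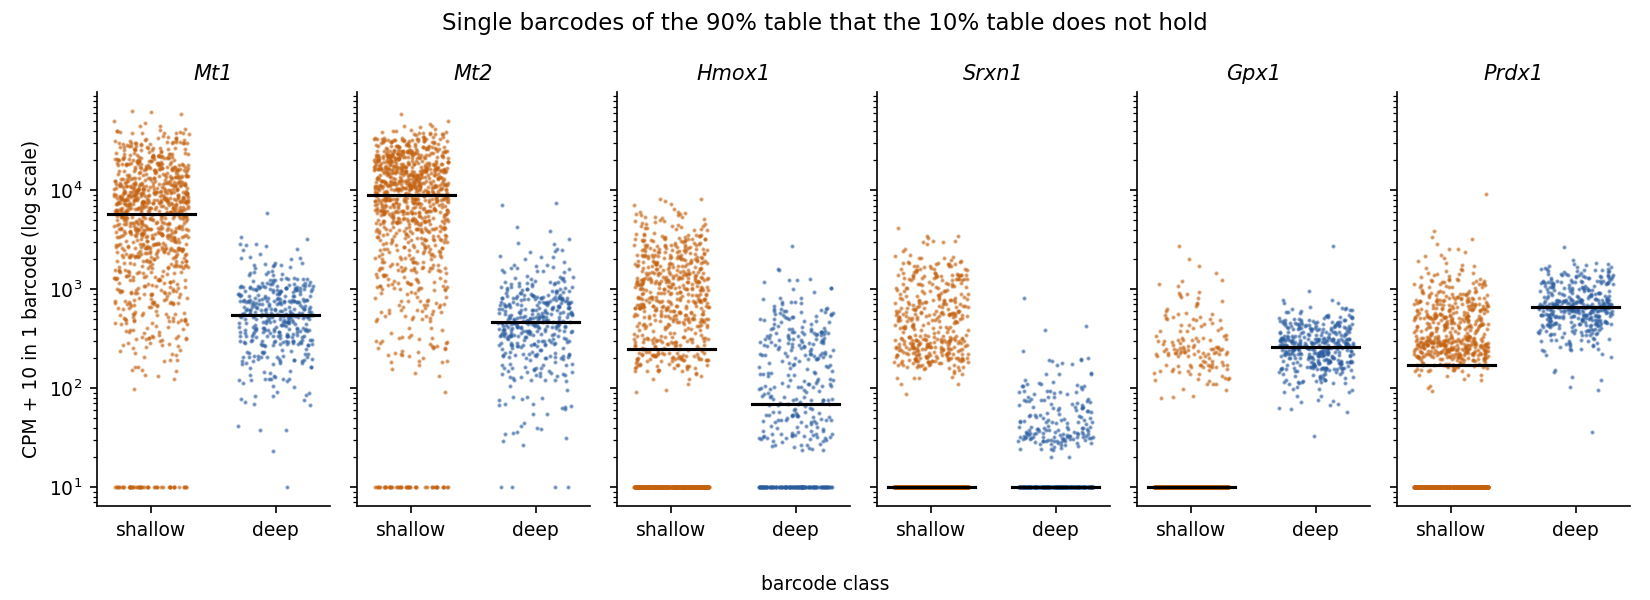
Level of 6 members in single barcodes of the 90% table without shared barcodes, as CPM plus 10 on a log axis, with 1 point for each of 1000 shallow and 399 deep barcodes and a line at the median. The medians of Mt1 are 5753 CPM in shallow and 537 CPM in deep barcodes before 10 is added, and points of the classes overlap for each of the 6 genes.

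Single barcodes of the shallow class spread widely. In the 10% table Mt1 had a median of 7133 CPM in shallow barcodes with quartiles of 2744 and 14621 CPM, and a median of 670.3 CPM with quartiles of 400.3 and 1017 CPM in deep barcodes. In the 90% table the medians of Mt1 were 5979 and 544 CPM, with upper quartiles of 11651 and 870 CPM. The classes overlapped, since 8 of 157 and 54 of 1243 shallow barcodes had no Mt1 UMI and the highest deep barcodes reached 5570 and 5865 CPM. Mt2 had medians of 11503 and 672 CPM, then 9231 and 476 CPM. Hmox1 was at 0 in 62 of 157 shallow barcodes of the 10% table and 521 of 1243 of the 90% table, while the tenth of barcodes with the most Hmox1 UMIs held 49.5% and 49.8% of all its UMIs. After thinning to 3000 UMIs the variance of Mt1 was 33.7 times its mean in shallow and 2.49 times in deep barcodes of the 10% table, and 29.3 and 2.63 times in the 90% table, where a value of 1 is that of counting alone. The same ratio was 29.2 and 4.27, then 25.6 and 3.18, for Mt2, and 5.04 and 2.61, then 6.77 and 2.19, for Hmox1. Gpx4 and Sod1 lay nearer to 1, at 1.06 and 0.968 in shallow barcodes of the 10% table and 1.32 and 1.49 in those of the 90% table. The ratio also depends on the mean level, which was higher in shallow barcodes for Mt1, Mt2 and Hmox1.

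Some members varied together from barcode to barcode. Correlations are Pearson's r over log2(CPM + 10) of barcodes that share a library and a total, given as a description. Mt1 and Mt2 had r of 0.80 in shallow and 0.69 in deep barcodes of the 10% table, and 0.73 and 0.74 in those of the 90% table. Hmox1 and Srxn1 had r of 0.49 over the 79 and 0.47 over the 606 deep barcodes, and Hmox1 and Txnrd1 had 0.50 and 0.36. In the same deep barcodes Hmox1 and Myod1 had r of -0.49 and -0.45, against 0.14 and 0.14 over shallow barcodes, while Hmox1 and the 14 immediate-early genes had 0.44 and 0.43, against 0.22 and 0.13. Mt2 and the immediate-early genes had r of 0.39 and 0.38 over shallow barcodes.

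Across 6259 genes, those most like each member in deep barcodes, by the smaller r of the 2 tables, included other members. The nearest to Srxn1 was Hmox1 (0.47), followed by Ndrg1 (0.44) and Neat1 (0.43), and the nearest to Txnrd1 was also Hmox1 (0.36). The nearest to Hmox1 was Neat1 (0.66), a nuclear long non-coding RNA, followed by Pnrc1 and Btg1 (0.59 each). Mt1 and Mt2 were nearest to each other (0.69), and next came the ferritin light chain gene Ftl1 for Mt1 (0.28) and Maff for Mt2 (0.24). Prdx1 was nearest to Ppia (0.57), Gpx1 to Rps27l and Ftl1 (0.33 each), Gpx4 to Gpx4-ps2 (0.80) and Sod1 to Gm8566 (0.45), the last pair being copies that can share reads.

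Long reads of the 10% aliquot gave the same order of the classes for each called member, from the same cells and cDNA. They held 1382498 UMIs in the 157 shallow and 4628237 UMIs in the 79 deep barcodes. Mt1 was at 5599 and 627 CPM in long reads and Mt2 at 6846 and 622 CPM, 8.92-fold and 11.005-fold higher in shallow barcodes, where 21.2% of 10706 genes were at least 2-fold higher. Srxn1 was at 512 and 64.8 CPM (7.90-fold), Hmox1 at 1926 and 698 CPM (2.76-fold) and Txnrd1 at 317 and 145 CPM (2.19-fold). Gpx1 was at 93.3 and 360.4 CPM, 3.86-fold higher in deep barcodes as were 30.6% of genes by at least 2-fold. Nqo1 had 28 UMIs in deep barcodes and 0 in shallow ones, which allows up to 2.2 CPM there. The UMIs of Mt2 per UMI of Mt1 were 1.22 in shallow and 0.991 in deep barcodes.

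Isoform shares of the members differed between the classes by less than 20 points. Of the 9 members with at least 50 long-read UMIs in each class, none had an isoform whose share of the gene's UMIs differed by 20 points, against 17.3% of 3265 genes. The reference-named Mt1-201 (from 94179082) made up 52.6% (51.5 to 53.7) of Mt1 in shallow and 63.1% (61.3 to 64.8) in deep barcodes, 10.5 points (8.37 to 12.5) more. An unnamed form that begins at 94179241, 152 bases past the RefSeq start, made up 44.6% and 34.4% of Mt1. The pair at Mt2 moved less, with Mt2-201 at 57.1% and 60.9%, 3.71 points (1.66 to 5.74) more, and the form that begins at 94172784 at 39.0% and 36.4%. Hmox1-201 made up 84.7% of Hmox1 in shallow and 90.0% in deep barcodes, 5.22 points (3.52 to 6.95) more.

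**Figure D4:**
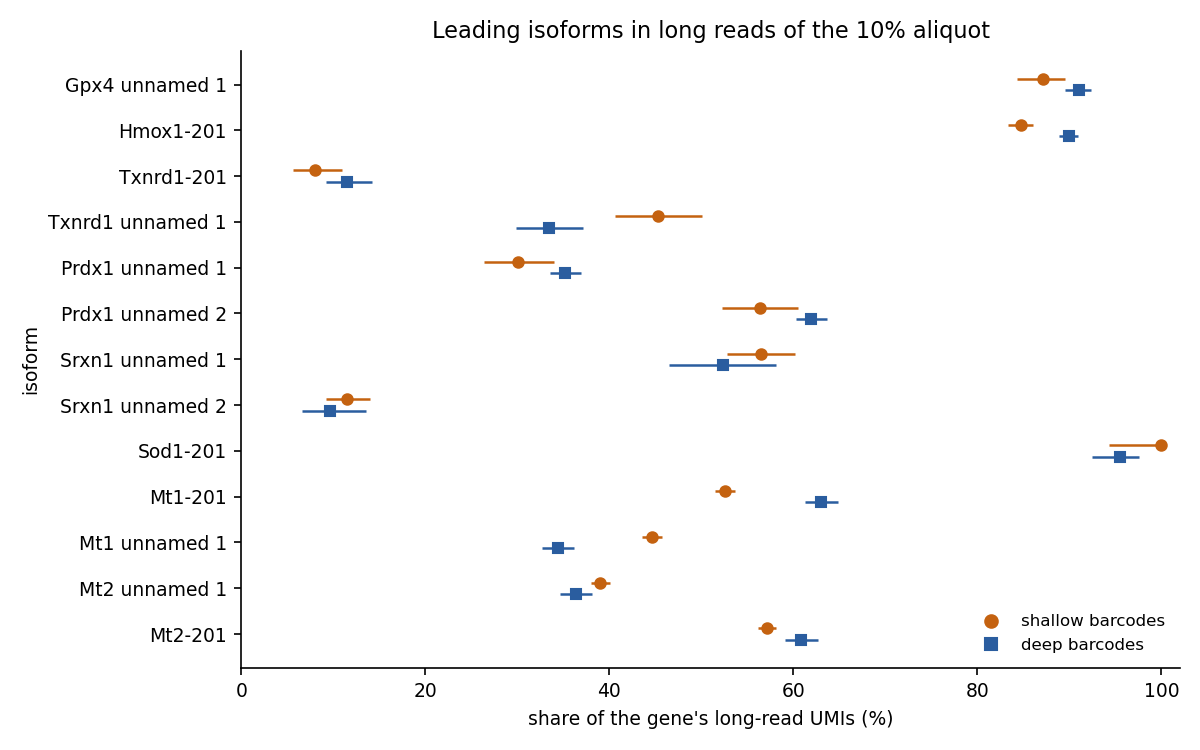
Share of each member's long-read UMIs held by isoforms with at least 10% in either class, in shallow and deep barcodes of the 10% aliquot, as percent with exact 95% binomial intervals. Mt1-201 is at 52.6% and 63.1% and Hmox1-201 at 84.7% and 90.0%.

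Txnrd1 was counted in 19 isoforms, and those that begin at 82859207, next to the RefSeq start at 82859206, made up 78.4% (74.2 to 82.1) of its UMIs in shallow and 63.0% (59.2 to 66.7) in deep barcodes, 15.4 points lower (9.94 to 20.5 points) in deep barcodes. Nearby starts at 82859179, 82859229 and 82859299 made up 7.97% and 11.5%, 0% and 0.597%, and 5.01% and 6.12%. The 15.4 points thus hold for that exact base and not for all starts near it. The isoform that begins at 82860301 made up 2.73% and 8.51%, and one that begins at 82879258 made up 1.14% and 5.82%. The remaining members differed by fewer points. The main Prdx1 isoforms, which begin at the same base and end at 116699997 or 116699511, made up 56.4% and 62.0%, and 30.1% and 35.2%. The main Gpx4 isoform made up 87.1% and 91.0%. The main Srxn1 isoform made up 56.5% (52.8 to 60.2) and 52.3% (46.5 to 58.1), a difference of -4.16 points (-10.9 to 2.52) with an interval that includes 0. Gpx1 was counted as 1 isoform, and Sod1-201 made up 100% of 63 UMIs and 95.5% of 290 UMIs.

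The wider pathways around the members were compared through 8 lists of 118 further genes, 110 of which had enough UMIs. Of these, 34 were higher in deep and 30 in shallow barcodes, where 24.9% and 13.8% of all genes were. The lists too were chosen with earlier results of these data known, so their counts are a description. Genes that make NADPH or reduce quinones were mostly higher in deep barcodes, with 9 of 13 against 1 in shallow and a median log2 ratio of 1.92. Pgd, a pentose phosphate enzyme that yields NADPH, was at 5.38 and 41.4 CPM in shallow and deep barcodes of the 10% table and at 13.2 and 48.1 CPM in the 90% table. Nqo2, a quinone reductase related to Nqo1, had no UMI in shallow barcodes and 10.8 CPM in deep barcodes of the 10% table, then 1.70 and 12.2 CPM. The malic enzyme gene Me1 (2.69 and 11.2 CPM, then 2.63 and 19.2 CPM) and the aldo-keto reductase gene Akr1b8 (9.87 and 49.6 CPM, then 6.82 and 52.6 CPM) were higher in deep barcodes as well. Aldh2, a mitochondrial aldehyde dehydrogenase, was the 1 higher in shallow barcodes, at 99.6 and 17.5 CPM, then 100.1 and 19.6 CPM. Among the regulators the calls lay in the other class, with 9 of 13 higher in shallow barcodes, none in deep ones and a median log2 ratio of -1.83.

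Among these regulators were factors of the antioxidant response element itself. Nfe2l2, which encodes NRF2, was at 96.0 and 41.2 CPM in the 10% table and 83.5 and 36.9 CPM in the 90% table. Its partners Maff (371 and 16.1 CPM, then 419 and 17.1 CPM) and Mafk (91.5 and 6.67 CPM, then 104 and 7.67 CPM) were higher in shallow barcodes by wider margins, as was the repressor Bach1 (49.3 and 9.22 CPM, then 71.4 and 9.47 CPM). Bach2, a relative of Bach1, was at 9.87 and 0.392 CPM, then 10.1 and 1.07 CPM, and Osgin1, an oxidative stress gene, at 28.7 and 3.92 CPM, then 37.5 and 3.18 CPM. Keap1, which marks NRF2 for degradation, was at 3.59 and 11.6 CPM, then 6.82 and 12.6 CPM, and was not called because the ratio in the 90% table was under 2-fold. Of the metal list 3 of 13 were higher in shallow and 1 in deep barcodes. These 3 included Slc39a14, a zinc and iron importer, at 275 and 8.63 CPM, then 262 and 7.87 CPM, and Cp, the copper oxidase ceruloplasmin, at 65.5 and 1.57 CPM, then 78.3 and 1.31 CPM. The last of the 3 was the zinc importer Slc39a1, at 30.5 and 9.02 CPM, then 54.9 and 23.8 CPM, and the 1 higher in deep barcodes was Cox17, a copper chaperone of mitochondria, at 20.6 and 69.0 CPM, then 43.1 and 132 CPM. Mt3, the metallothionein first known from brain, was at 7.18 and 11.6 CPM, then 1.70 and 10.98 CPM, and was not called, unlike its relatives Mt1 and Mt2. Mtf1, which encodes the metal-sensing factor of the metallothionein genes, was at 25.1 and 10.6 CPM, then 16.9 and 12.0 CPM, and was not called.

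**Figure D5:**
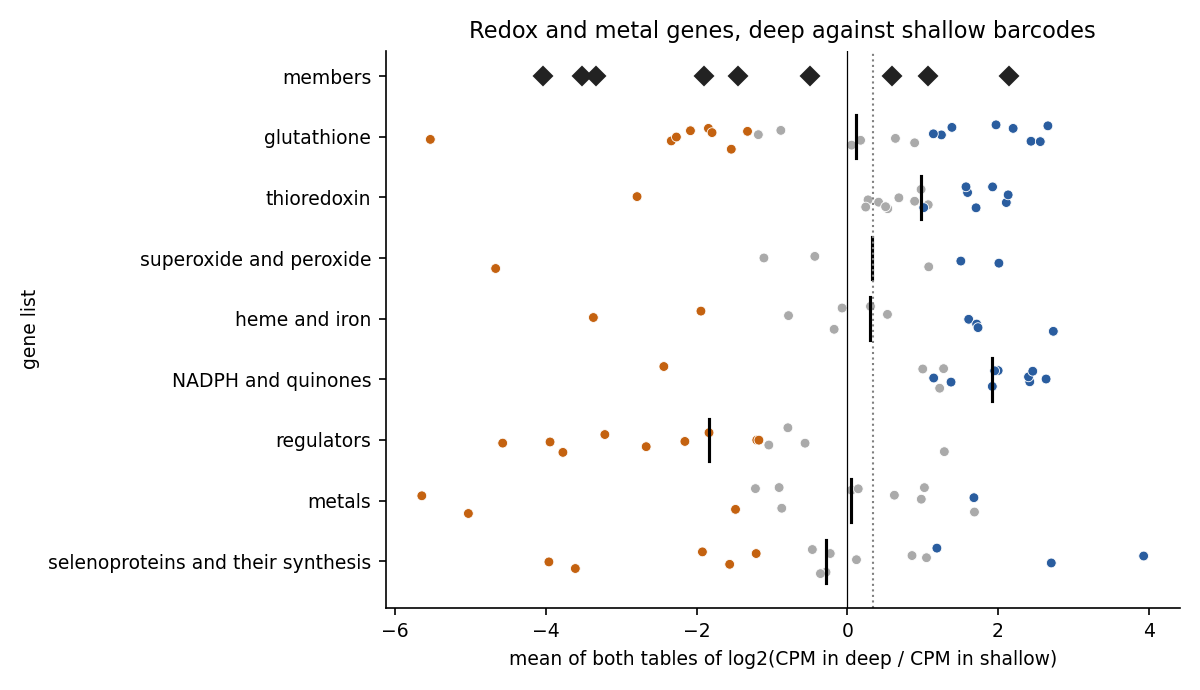
Log2 ratio of deep over shallow CPM, averaged over the tables, for 9 members (diamonds) and the genes of 8 lists (points), with a bar at the median of each list and a dotted line at the median of all genes. Orange points passed the 2-fold rule in shallow and blue points in deep barcodes, genes at 0 UMIs are drawn at the limit of 3 counts, and the regulators have a median of -1.83 against 1.92 for NADPH and quinone genes.

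In the thioredoxin list 7 of 17 genes were higher in deep barcodes and 1 in shallow ones, with a median log2 ratio of 0.98. The thioredoxin gene Txn1 was at 468 and 1508 CPM, then 416 and 1381 CPM, and the peroxiredoxin genes Prdx2 (69.1 and 278 CPM, then 71.3 and 330 CPM), Prdx3 (14.4 and 56.9 CPM, then 24.95 and 91.2 CPM), Prdx4 (37.7 and 91.8 CPM, then 31.0 and 113 CPM) and Prdx6 (109 and 223 CPM, then 129 and 260 CPM) were higher in deep barcodes too. Prdx5 was at 68.2 and 136 CPM, then 78.0 and 151 CPM, the second pair under 2-fold. Glrx5, a mitochondrial glutaredoxin, was at 38.6 and 174 CPM, then 42.8 and 183 CPM. The relatives of Txnrd1 had few UMIs, with Txnrd2 of mitochondria higher in deep barcodes at 3.59 and 11.6 CPM, then 4.49 and 12.8 CPM, and Txnrd3 at 4.49 and 4.12 CPM, then 2.48 and 5.69 CPM, not called. The 1 gene higher in shallow barcodes was Txnip, an inhibitor of thioredoxin, at 26.0 and 5.10 CPM, then 28.8 and 3.08 CPM. Thus Srxn1 and Txnrd1 stood opposite to most called genes of the thioredoxin list, which were measured beside them.

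The glutathione list was divided, with 8 of 22 genes higher in each class. Gpx3, the secreted glutathione peroxidase, was at 2747 and 62.4 CPM in the 10% table and 3583 and 73.8 CPM in the 90% table, 44.1-fold and 48.6-fold higher in shallow barcodes. Gsr, which regenerates glutathione, was at 4.49 and 23.7 CPM, then 3.72 and 28.2 CPM, and Gpx8 of the endoplasmic reticulum at 8.97 and 47.9 CPM, then 13.5 and 53.5 CPM, both higher in deep barcodes. Gpx7, its closest relative, was at 8.97 and 17.1 CPM, then 9.45 and 17.2 CPM, both pairs under 2-fold. Glutathione transferase genes went both ways, with Gsto1 at 14.4 and 95.9 CPM, then 22.2 and 97.5 CPM, Mgst2 at 0 and 7.45 CPM, then 0.62 and 7.80 CPM, and Gstm2 at 25.1 and 5.88 CPM, then 24.3 and 4.08 CPM. Of 15 genes for selenoproteins and their synthesis 5 were higher in shallow and 3 in deep barcodes. Selenop, which carries selenium in plasma, was at 85.2 and 8.82 CPM, then 145 and 5.79 CPM, and Selenoh, a nuclear selenoprotein, was at 22.4 and 368 CPM, then 25.4 and 361 CPM. Selenok (368 and 108 CPM, then 534 and 127 CPM) and the deiodinase gene Dio2 (31.4 and 1.57 CPM, then 13.2 and 1.77 CPM) were higher in shallow barcodes, and Pstk, a kinase of selenocysteine synthesis, was higher in deep ones at 3.59 and 26.9 CPM, then 4.03 and 23.0 CPM.

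The superoxide and heme lists had the fewest genes compared of the 8 lists. Of all genes compared, 24.9% were higher in deep and 13.8% in shallow barcodes. Of 6 superoxide and peroxide genes 2 were higher in deep and 1 in shallow barcodes. The 1 was Sod3, the extracellular superoxide dismutase, at 9.87 and 0.588 CPM, then 8.99 and 0.234 CPM, whereas the mitochondrial Sod2 was at 152 and 99.6 CPM, then 142 and 119 CPM, and was not called. Park7, which protects against oxidants, was higher in deep barcodes at 69.1 and 295 CPM, then 78.3 and 299 CPM, and so was the catalase gene Cat at 1.79 and 6.08 CPM, then 3.56 and 8.50 CPM. Of 11 heme and iron genes 4 were higher in deep and 2 in shallow barcodes. Blvrb, which reduces biliverdin and follows heme oxygenase, was higher in shallow barcodes, at 60.1 and 18.8 CPM, then 62.3 and 13.5 CPM. Slc40a1, the iron exporter ferroportin, was the other, at 6.28 and 0.588 CPM, then 6.35 and 0.636 CPM. Higher in deep barcodes were the transferrin receptor gene Tfrc (7.18 and 15.5 CPM, then 5.58 and 27.9 CPM), Fech, the last enzyme of heme synthesis (6.28 and 16.9 CPM, then 5.42 and 22.4 CPM), and Cisd1, an iron-sulfur protein of the outer mitochondrial membrane (16.2 and 114 CPM, then 19.2 and 120.4 CPM). Hmox2, the constitutive heme oxygenase, was at 17.9 and 22.4 CPM, then 13.9 and 23.5 CPM, and was not called.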

How the data were processed

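Quiescent and activated YFP-sorted MuSCs were run in 1 capture and divided into a 10% and a 90% aliquot. The authors deposited UMI counts per gene, made from short reads with scPipe for each aliquot, and UMI counts per isoform, made from Nanopore reads with FLAMES for the 10% aliquot. The deposited counts are not normalized. The deposited annotation gives the start and end positions of isoforms on mm10. The submitters' processing notes name GRCm38.p6, Cell Ranger 1.3 and minimap2 2.17. Symbols and positions came from Gencode vM21, on the same assembly as the authors' vM24, and promoter sequences from RefSeq.

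UMIs were summed over the barcodes of a class and divided by the class total (python 3.11.15, numpy 2.4.6, scipy 1.17.1, pandas 2.3.3). Class totals were 1114508 and 5099209 UMIs in the 10% table and 6452314 and 29875734 in the 90% table. Levels and shares have exact 95% intervals, differences of shares Newcombe intervals, and a count of 0 the limit of 3 counts. All cover counting error only. No p-value was computed, because barcodes of 1 capture are not replicates. No cell filter beyond UMIs and cycle genes and no doublet caller was applied. Thinning was to 3000 UMIs with a fixed seed, and the fold rule was tested on simulated data. Copies were genes matched by blastn 2.17.0 at 95% identity or more over at least 100 bases. Genes named are the members, up to 5 genes of each list past the fold rule with the largest ratios, their closest relatives and regulators whatever their values, up to 3 genes most like a member by correlation over barcodes, and isoforms of at least 10% of a member. Isoforms grouped by start and the copies were named after their values were seen. The members and lists were chosen with earlier results of these data known.

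Alternatives changed the UMI limits, cycle genes, other cell types, averaging, thinning, scaling, free RNA, table, UMI minimum and fold. The 90% table without shared barcodes, the 10% table without 5 shallow barcodes that are deep in the 90% table, unthinned spread, isoforms grouped by start or end and added copies were chosen after seeing the data.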

Additional observations from a re-analysis of the deposited data

Results flagged for a closer look

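Barcodes of 300 to 3000 UMIs belonged to neither class in the comparisons of the report, although those of at least 1000 UMIs joined the shallow class in an alternative, in which Mt1 and Mt2 were still higher in shallow barcodes. In the 700 such barcodes of the 90% table Mt1 was at 4131 CPM and Mt2 at 4103 CPM, above the limit that a count of 0 allows and between the levels of the shallow and deep classes. In the 262 barcodes of that table with under 300 UMIs, the nearest to empty droplets, Mt1 was at 1487 CPM and Mt2 at 1445 CPM. In the 10% table the levels were 4101 and 6037 CPM at 300 to 3000 UMIs, and 2909 and 3588 CPM in 1589 barcodes under 300 UMIs. Mt1 and Mt2 thus stood above the deep class in the smallest barcodes of both tables too.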

How the results depend on the processing

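No log2 ratio of a member changed sign under any alternative, and 46 of the recomputed ratios moved by more than the counting error. With both classes free of cycle UMIs the calls of Hmox1 and Txnrd1 were lost, which left 3 members higher in shallow barcodes. That alternative left 22 listed genes higher in deep and 19 in shallow barcodes, and 986 and 1017 of all genes. Members higher in deep barcodes came to 2, with Prdx1, when barcodes with other cell types were left out, CPM was averaged over barcodes, barcodes were thinned, levels were scaled by the median ratio or the limit was 1.5-fold. In these settings 65.5%, 65.6%, 53.9%, 67.1% and 63.7% of all calls, in that order, were higher in deep barcodes. Thinning also gave 21 listed genes higher in deep barcodes, and 1028 and 879 of all genes. A single table gave 1 to 3 members higher in deep barcodes, and 3996 to 5266 and 2180.0 to 3545 of all genes. At least 50 UMIs left 1941 and 849 of all genes, and no minimum with 0.5 UMI added gave 3599 higher in shallow barcodes. The number of genes compared was not fixed across settings, so these counts of all genes are not shares. Of all calls 64.3% were higher in deep barcodes, against 49.2% without cycle UMIs, 53.9% with thinning and 46.6% with no minimum. Isoform differences were found in 63 genes with reference-named isoforms alone and 1746 at 10 points, against 564. The main Prdx1 isoform differed by -0.82 points when shares were averaged over barcodes. No paired analysis was possible because the aliquots come from 1 capture and no test was run. The design gives no error between animals, and depth, class and handling cannot be told apart.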
